A study of Mus musculus with 6 samples.

Results

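The cytosolic ribosomal protein genes were followed in whole mouse kidneys at stage E13.5, on Affymetrix MOE430.2 arrays. The genes were taken by symbol, as those named Rpl or Rps with a number together with Rplp0, Rplp1, Rplp2 and Rpsa, leaving out the Rps6k kinases and pseudogenes with -ps in their symbol. A gene entered where at least 1 probe set was annotated to it alone, which gave 50 of the 18193 genes on single-gene probe sets. Each gene was read from the brightest of its probe sets, by the mean of 6 arrays. These 50 comprised 22 genes of the large subunit, 21 of the small subunit, 6 paralogs that lie outside the usual set of the ribosome (Rpl3l, Rpl7l1, Rpl22l1, Rpl39l, Rps4l and Rps27l), and Rps19bp1, which the symbol takes in although its product is a ribosomal protein binding partner. RefSeq lists Rps4l as a transcribed pseudogene. Another 31 symbols of the same kind were found only on probe sets annotated to several genes and are described apart.

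The comparison was between kidneys that lacked Fz8 and carried Fz4 (Fz4+/+Fz8-/-, 3 arrays, C1, C2 and C3, called Fz8-null here) and kidneys that lacked both Frizzled receptors (Fz4-/-Fz8-/-, 3 arrays, M1, M2 and M3, called double-null). All animals thus lacked Fz8, and all came from a hybrid of the strains C57BL/6, 129X1/SvJ and 129S1/Sv. The design asks what loss of Fz4 changes in a kidney without Fz8. Values are the authors' log2 probe-set intensities, and ± is the SD of 3 arrays. The design calls the replicates biological, and from how many embryos each array was made is not given in the sources used here. In tissue of many cell types, fewer cells of a type and less RNA per cell cannot be told apart.

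A ribosome joins a small and a large subunit, each built from ribosomal RNA and a set of proteins made in near-equal numbers. Their transcripts are among the most abundant of a growing embryonic tissue, and in vertebrates most begin with a tract of C and T bases at the 5′ end, the TOP tract (terminal oligopyrimidine), through which the TOR kinase sets how much of the transcript is translated. Several proteins have a role outside the ribosome or a paralog with a narrower pattern of expression. Arrays read the transcript level and not how much of it is translated.

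The stretch around the annotated transcription start is shown for 12 of the genes, to let the start tracts of ribosomal proteins and of paralog pairs be set side by side. The sequences are from RefSeq (GRCm38.p6), which held a promoter for 44 of the 50 genes. Each line has the 15 bases before and the 15 bases from the start, 5′ to 3′, with the longest run of C and T in capitals. Rpl22 and Rps27l have 2 annotated starts, of which the first listed is printed.
Rps6 (chr4:86857353-86857382, minus strand): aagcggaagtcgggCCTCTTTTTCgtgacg
Rpl38 (chr11:114668565-114668594, plus strand): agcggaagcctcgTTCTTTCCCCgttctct
Rplp2 (chr7:141447636-141447665, plus strand): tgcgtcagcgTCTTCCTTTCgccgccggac
Rpl35 (chr2:39005117-39005146, minus strand): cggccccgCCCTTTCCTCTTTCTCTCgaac
Rps10 (chr17:27635230-27635259, minus strand): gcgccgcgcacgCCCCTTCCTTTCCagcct
Rps18 (chr17:33955651-33955680, minus strand): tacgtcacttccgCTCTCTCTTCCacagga
Rpl22 (chr4:152325711-152325740, plus strand): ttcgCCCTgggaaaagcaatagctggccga
Rpl22l1 (chr3:28805493-28805522, plus strand): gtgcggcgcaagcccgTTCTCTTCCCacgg
Rps27 (chr3:90213634-90213663, minus strand): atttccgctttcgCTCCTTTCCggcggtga
Rps27l (chr9:66946071-66946100, plus strand): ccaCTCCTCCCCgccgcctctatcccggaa
Rpl39 (chrX:37085208-37085237, minus strand): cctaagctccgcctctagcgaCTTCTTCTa
Rpl39l (chr16:10170213-10170242, plus strand): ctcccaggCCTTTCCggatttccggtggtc

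In Rps6, Rpl38, Rplp2, Rps10, Rps18 and Rps27 the run began 1 to 5 bases before the annotated start and went across it, and in Rpl35 it began 7 bases before and held 18 bases. That of Rpl22l1 began 1 base after the first base of the transcript and was 10 bases long. Rpl22 had at most 4 such bases in a row within this window. Rpl39l had 7, which ended at the base before the start, and in Rpl39 the run began 6 bases after it. A C followed by at least 5 further C or T bases lay within this 30-base window in 25 of 44 members (56.8%) and in 6883 of 27025 genes with a RefSeq promoter (25.5%). Read on the opposite strand, the same tract was in 3 of 44 members (6.82%) and in 28.6% of all genes. Annotated starts can be off by some bases, and a gene without a match may still have a tract elsewhere. The log2 difference between genotypes had a median of 0.0065 over the 25 members with the tract and of -0.051 over the 19 without, and in both classes the differences lay on either side of 0.

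Fzd4, which encodes Fz4, fell in the double-null kidneys and matched the labels. It read 10.74, 10.86 and 10.93 in C1, C2 and C3, and 5.29, 4.96 and 3.89 in M1, M2 and M3, a difference of -6.13 (SE 0.35, limma with an adjusted p = 0.00318, exact two-sided permutation p = 0.1, the smallest that 3 against 3 arrays allow). Fzd8 lay near the bottom of the scale in both genotypes, at 3.98 ± 0.42 and 3.69 ± 0.18 (n = 3 in each), with a difference of -0.29 (limma adjusted p = 0.529). Of 12 kidney marker genes 11 were measured, and their mean level was 9.49, 9.35 and 9.32 in C1, C2 and C3 and 9.04, 8.75 and 9.22 in M1, M2 and M3. Of the 11, 10 lay below 0, with a median of -0.27, and 6 were lower without overlap of the groups (54.5%, beside 12.2% of all genes). Ret, the receptor of the ureteric bud tip, stood at -1.11 and Cited1, a marker of nephron progenitors, at -1.02, and neither passed (limma, adjusted p = 0.314 in both). Markers of other tissues differed between arrays too. The mean of 7 measured liver genes ran from 5.73 to 6.56 in Fz8-null kidneys and was 6.93, 9.59 and 9.85 in M1, M2 and M3, and that of 11 erythroid genes ran from 6.76 to 6.95 in Fz8-null kidneys and was 6.36, 8.80 and 8.91 in M1, M2 and M3. Their part in the values of the ribosomal protein genes was not tested.

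Transcript levels of the ribosomal protein genes did not pass the threshold between the genotypes for any member. Over all genes 5 of 18193 passed an adjusted p of 0.05 (0.0275%, limma with Benjamini-Hochberg adjustment), and 0 of the 50 members were among them. At an unadjusted p under 0.05 stood 1 member (2%, Rpl39l), beside 15.3% of all genes. Of the 41 members whose mean was 10 or more it was 0, beside 8.49% of 3098 genes that bright. The median difference was -0.0050 over the members, with 25 above 0 and 25 below, beside -0.061 over all genes and -0.054 over those 3098. The middle of the members was narrow, from -0.11 at the lower quartile to 0.090 at the upper, against -0.28 and 0.14 over all genes. For 39 of the 50 (78%) the 95% interval of the difference lay within 0.5 log2 units of 0, as it did for 27.8% of all genes and 52.6% of the 3098. The intervals and p-values depend on the variance model, here eBayes without trend. With trended and robust eBayes the SE fell from 0.11 to 0.054 for Rps18 and from 0.11 to 0.053 for Rpl35. It rose from 0.12 to 0.19 for Rpl39, which is dimmer, and 0 members passed there too. With the array medians set equal, 34 members lay above 0 and 16 below, and the median moved to 0.050, so the sign of a small difference depends on the scaling.

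**Figure D1:**
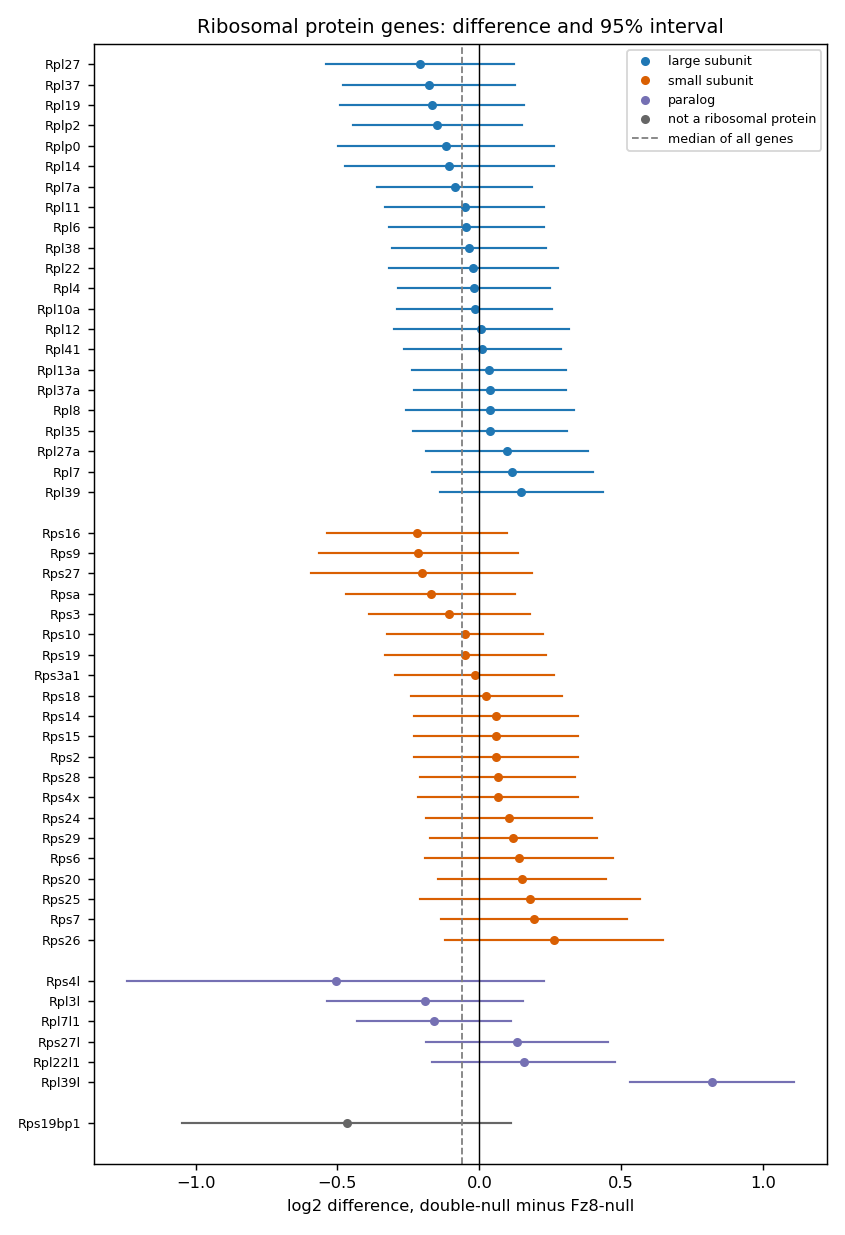
Log2 difference between double-null and Fz8-null kidneys (x axis) for each of the 50 ribosomal protein genes (y axis), with limma's 95% interval as a line, grouped by role. The interval of Rpl39l alone, 0.53 to 1.11, leaves out 0, and those of the large-subunit genes are centred between -0.21 and 0.15.

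The groups did not overlap for 5 members (10%), of which 2 were higher (Rpl39l and Rps18) and 3 lower (Rpl7l1, Rpl37 and Rps16) in double-null kidneys. The share over all genes was 18.9%, with 6.68% higher and 12.2% lower. Among those with a mean of 10 or more it was 2 of 41 members (4.88%), beside 19.6% of genes. With equal array medians the share of higher genes among all those without overlap went from 35.4% to 46.3%, while the members stood at 2 higher and 3 lower in both. In Rps18, a protein in the head of the small subunit, the arrays C1, C2 and C3 read 13.47, 13.45 and 13.46 and M1, M2 and M3 read 13.48, 13.49 and 13.47. The separation was thus a difference of 0.025, with a 95% interval from -0.24 to 0.29.

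Of the members, 37 had a mean of 12 or more and 30 a mean of 13 or more, close to the top of the scale, where the highest probe set of an array read 14.46 to 14.51. Probe sets that bright may be compressed, and this was not tested. The median SD over 3 arrays was 0.071 among Fz8-null and 0.077 among double-null arrays for the members, beside 0.16 and 0.24 over all genes and 0.12 and 0.14 over the 3098. The 3 brightest, which as probe-set levels do not rank the genes, were Rpl41, the smallest protein of the large subunit, Rpl35 and Rplp2. Rpl41 read 14.12, 14.13 and 14.14 in C1, C2 and C3 and 14.17, 14.21 and 14.06 in M1, M2 and M3. These values overlapped, and their difference was 0.010 (95% interval -0.27 to 0.29). Its sign turned with the processing.

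Among the large-subunit genes the median difference was -0.019, with 9 above 0 and 13 below, and 21 of the 22 intervals lay within 0.5 of 0. Rpl27 had the smallest p of those, with 13.28, 13.61 and 13.58 in the Fz8-null arrays and 13.23, 13.27 and 13.34 in the double-null arrays, a difference of -0.21 (SE 0.14, limma adjusted p = 0.457). Here C1 lay among the double-null arrays and the other Fz8-null arrays lay above them. Rplp0 and Rplp2 form with Rplp1 the stalk that recruits translation factors. Rplp0 read 12.98, 13.03 and 12.95 in Fz8-null kidneys and 12.69, 12.76 and 13.16 in double-null kidneys, so that M1 and M2 were the lowest of the 6 and M3 the highest. Its difference was -0.12 (95% interval -0.50 to 0.26). Rplp2 stood at -0.15, with M1 and M2 at 13.80 each and the other 4 arrays between 13.93 and 14.06. Rpl11, which with Rpl5 holds back Mdm2 when ribosome assembly stalls, stood at -0.051 (95% interval -0.33 to 0.23). Rpl38, whose loss in mice alters translation of Hox transcripts and the axial skeleton, stood at -0.037 (95% interval -0.31 to 0.23). For Rpl11 and Rpl38 the sign turned with equal array medians.

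The small-subunit genes had a median difference of 0.060, with 13 above 0 and 8 below, and 15 of the 21 intervals lay within 0.5 of 0. Rps26 had the smallest p of those above 0. It read 13.38, 12.92 and 12.92 in C1, C2 and C3, and 13.36, 13.34 and 13.31 in M1, M2 and M3, a difference of 0.26 (SE 0.16, limma adjusted p = 0.427). All 3 double-null arrays and C1 lay together, above C2 and C3. Rps7, in which changes cause Diamond-Blackfan anaemia in people as they do in Rps19, Rps24 and Rps26, was alike in shape, with 13.23, 12.95 and 13.04 against 13.30, 13.35 and 13.13, and a difference of 0.19 (95% interval -0.14 to 0.52). Rps20 stood at 0.15, Rps24 at 0.10 and Rps19 at -0.049, the last with a sign that turned under equal array medians. Rps9 lay the other way. It read 13.12, 13.48 and 13.45 in Fz8-null kidneys and 13.06, 13.11 and 13.24 in double-null kidneys, a difference of -0.22 (SE 0.15, limma adjusted p = 0.467), again with C1 among the double-null arrays. Rpsa, which is both a ribosomal protein and the laminin receptor precursor, stood at -0.17 (95% interval -0.47 to 0.13). Rps6, the target of the S6 kinases below TOR, read 10.70, 10.77 and 10.73 in Fz8-null kidneys and 10.98, 10.98 and 10.65 in double-null kidneys. M1 and M2 lay above all Fz8-null arrays and M3 below them, and the difference was 0.14 (95% interval -0.19 to 0.47). Brighter probe sets that Rps6 shares with other annotated genes (means of 13.49 to 13.85) stood between 0.0060 and 0.065. In the brightest of them M1 and C1 both read 13.89. Dimmer shared probe sets stood between 0.074 and 0.39, and the other single-gene probe set of Rps6 (mean 4.61) at -0.37.

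Those single genes share a pattern across arrays. In 40 of the 50 members (80%) C1 was displaced from C2 and C3 in the direction of M1 and M2, as in 65.1% of all genes. In 40 of the 50 (80%) M3 lay beyond both M1 and M2 in the direction of the Fz8-null mean, as in 69.4% of all genes. Among genes with a mean of 10 or more these shares were 69.3% and 64.3%. The displacements of C1 and of M1 and M2 are both taken from C2 and C3, and so tend to share a direction. Those of M3 and of the Fz8-null mean are likewise both taken from M1 and M2. The C1 and M3 counts follow unlike rules, so their shares cannot be compared with each other. The median absolute gap between 2 arrays over the members was 0.043 for M1 and M2 and 0.046 for C2 and C3. It was 0.11 between C1 and C2, 0.11 between M1 and M3, 0.18 between M1 and C2 and 0.054 between C1 and M3. Over all genes the gap was 0.20 for M1 and M2, 0.13 for C2 and C3 and 0.20 for C1 and C2. For M1 and M3 it was 0.30 over all genes, for M1 and C2 0.32, and for C1 and M3 0.17. Without M3, 34 of 50 members (68%) had no overlap of the groups, 18 higher and 16 lower, where 53.4% of all genes did. Without C1, 29 of 50 (58%) had none, 8 higher and 21 lower, where 39.4% of all genes did. These counts rest on 2 arrays in a genotype. M3 and C1 are the arrays displaced toward the other genotype in most members, so leaving them out raises the count by construction. Without C2, C3, M1 or M2 it was 6, 8, 7 or 5 members. No share over all genes is given for these fits, so their counts cannot be read against a background. Without M3, 2 members passed the threshold (Rpl39l at 0.84, limma adjusted p = 0.0115, and Rps4l at -0.82, limma adjusted p = 0.0452), in a fit in which 3292 of all genes passed (18.1%). Without C1, 0 members passed, as did 0.0165% of all genes (3). With weights estimated for each array 13 members passed, 3 higher and 10 lower, where 41.6% of all genes did.

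In 3 measures of the RNA, C1, M1 and M2 lay above C2, C3 and M3, though the order within each of these trios was not the same from measure to measure. The 3′ minus 5′ difference of the Gapdh control probe sets was 1.01 in C1, 1.15 in M1 and 1.04 in M2, and 0.80, 0.79 and 0.88 in C2, C3 and M3. That of the Actb control probe sets was 1.00 in C1, 1.30 in M1 and 1.08 in M2, and 0.74, 0.75 and 0.57 in C2, C3 and M3. The B1 repeat control read 11.02 in C1, 11.83 in M1 and 12.08 in M2, and 10.67, 10.73 and 10.85 in C2, C3 and M3. The control sets named MURINE_B2 and MUR_b2 split the arrays in the same way. Those of 18S ribosomal RNA did not. M3 read 9.25 on the 3′ set and 9.86 on the 5′ set, above all Fz8-null arrays, and was the highest array on the middle set at 11.87. The part of these RNA measures in the levels of ribosomal protein genes was not tested.

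**Figure D2:**
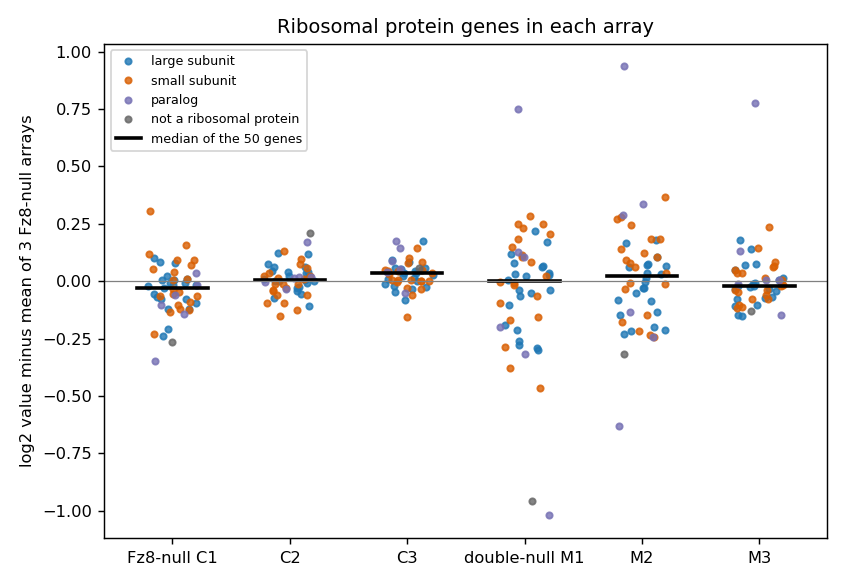
Deviation of each of the 50 genes from its Fz8-null mean, in log2 units (y axis), by array (x axis), with colours for the role and a bar for the median. The medians stay between -0.032 and 0.034, while single genes lie on both sides of 0 in every array. The highest point in each double-null array is Rpl39l.

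The paralogs held the member that stood farthest from 0. Rpl39l, a copy of the large-subunit gene Rpl39 best known from male germ cells, read 4.41, 4.39 and 4.32 in C1, C2 and C3, and 5.13, 5.31 and 5.15 in M1, M2 and M3. All double-null arrays lay above all Fz8-null arrays, by more than the spread within either genotype (4.38 ± 0.047 and 5.20 ± 0.10, n = 3 in each). The difference was 0.82 (SE 0.12, 95% interval 0.53 to 1.11). It did not pass over all genes (limma unadjusted p = 0.000291, adjusted p = 0.177), and the exact two-sided permutation p was 0.1, the smallest possible. Leaving out each array in turn gave differences from 0.76 to 0.85, with an adjusted p between 0.0115 (without M3) and 0.694 (without C2). The level lay in the lower part of the array scale, whose medians were 6.02 to 6.14, and only 1 probe set reads this gene. The Fz8-null values are as low as those of the Rpl37 probe set (4.02 to 4.42 over all arrays) and were not shown to be above background, so no fold is given. Rpl39 itself, one of the small proteins of the exit tunnel, stood at 0.15 on its single-gene probe set (95% interval -0.14 to 0.44) and at 0.11 on its shared probe set.

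Since Rpl39l is known from germ cells, a list of 10 germ cell genes was drawn up after its value was seen. Of the 8 measured, 5 lay above 0 and 3 below, with a median of 0.026. Dazl, an RNA-binding protein of germ cells, was the 1 of 8 without overlap, beside 18.9% of all genes (6.68% higher). It read 4.71, 3.71 and 4.56 against 6.62, 6.60 and 4.98 (difference 1.74, limma adjusted p = 0.314). Ddx4 stood at 0.43 and Dppa3 at 0.58, both with overlapping groups, Dnd1 at 0.0032, and Mael at 0.048, with arrays between 2.19 and 2.74. The 3 below 0 were Prdm1 at -0.37, Tdrd1 at -0.083 and Pou5f1 at -0.082, all with overlapping groups. The mean of the list was 4.24 to 4.26 in Fz8-null arrays and 4.69, 4.59 and 4.33 in M1, M2 and M3. Rpl39l read 5.13, 5.31 and 5.15 in M1, M2 and M3. The part of germ cells in the Rpl39l value was not tested.

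The bases upstream of both genes are given because this pair had the member farthest from 0 and its closest relative. Each line holds the 250 bases before the annotated start, 5′ to 3′, with matches to CCGGAAG, a common core of sites for ETS factors, in capitals on whichever strand they lie. AAGATGG, the core of YY1 sites, was searched on both strands too.
Rpl39 (chrX:37085223-37085472, minus strand): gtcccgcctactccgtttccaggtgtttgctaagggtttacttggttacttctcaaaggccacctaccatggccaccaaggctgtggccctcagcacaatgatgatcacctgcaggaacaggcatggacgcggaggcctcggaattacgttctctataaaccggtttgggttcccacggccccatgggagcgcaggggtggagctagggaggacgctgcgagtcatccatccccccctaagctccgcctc
Rpl39l (chr16:10169978-10170227, plus strand): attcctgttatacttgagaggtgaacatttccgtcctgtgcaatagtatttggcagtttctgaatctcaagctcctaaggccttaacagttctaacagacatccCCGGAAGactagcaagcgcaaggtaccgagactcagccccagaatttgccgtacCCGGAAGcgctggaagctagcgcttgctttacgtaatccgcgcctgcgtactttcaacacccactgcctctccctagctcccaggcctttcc

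Rpl39l had 2 matches to CCGGAAG and Rpl39 had 0, and neither had AAGATGG in this stretch. Over the 300 bases around the start, CCGGAAG on either strand was found in 21 of 44 members (47.7%) and in 9.93% of 27025 genes, and AAGATGG in 8 of 44 (18.2%) and 7.28%. The 2 motifs can share bases, since CCGGAAG ends in the letters with which AAGATGG begins. A match is a string of letters and was not tested for binding.

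The other paralogs differed less. Rps4l, listed as a transcribed pseudogene, read 9.32, 9.84 and 9.85 in Fz8-null kidneys and 8.65, 9.04 and 9.80 in double-null kidneys. M1 and M2 were the lowest arrays and M3 lay with C2 and C3, and the difference was -0.51 (SE 0.31, limma adjusted p = 0.424). Its partner Rps4x, the X-linked small-subunit gene, stood at 0.066 (95% interval -0.22 to 0.35). Rpl7l1, a paralog of Rpl7, read 11.33, 11.41 and 11.43 against 11.19, 11.25 and 11.24. The groups did not overlap, and the difference was -0.16 (95% interval -0.43 to 0.11). Its other probe sets stood at -0.35 and -0.25, so all 3 lay below 0, while Rpl7 stood at 0.12. Rpl22l1, which is held down by Rpl22, stood at 0.16, with M2 the highest at 12.72 and the other arrays between 12.34 and 12.51. Rpl22 stood at -0.021, with a sign that turned with equal array medians and without some arrays. Rps27l, a p53 target, stood at 0.13, 0.13 and 0.26 on its 3 probe sets, and Rps27 at -0.20, with M1 the lowest at 7.24. That probe set of Rps27 is dim (mean 7.60), and a bright one that Rps27 shares with Rps27rt (mean 13.75) stood at 0.053. Rpl3l, a striated muscle paralog, read between 3.28 and 3.74 on all arrays, near the bottom of the scale. Rps19bp1, an activator of the deacetylase Sirt1, read 9.73, 10.20 and 10.05 against 9.04, 9.68 and 9.87, a difference of -0.47 (SE 0.25, limma adjusted p = 0.370) with overlapping groups.

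**Figure D3:**
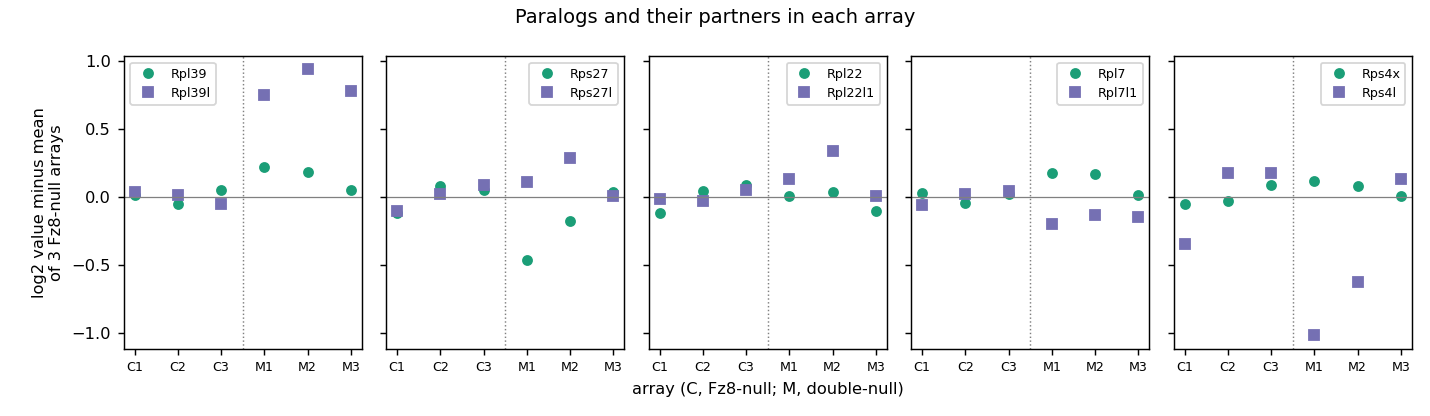
Deviation from the Fz8-null mean in log2 units (y axis) in each array (x axis) for 5 paralogs (squares) and their partners (circles). Rpl39l is higher in all 3 double-null arrays, while Rps4l is lower in M1 and M2 and not in M3.

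For some members the single-gene probe set says little about the gene. Rps16 read 2.01 to 2.43 and Rpl37 4.02 to 4.42 on all arrays, levels near background at which their separation of the groups (differences of -0.22 and -0.18) has little meaning. The shared probe sets of Rps16 read a mean of 13.35 and 13.23 over the 6 arrays and stood at 0.10 and 0.23. The 50 genes had 106 single-gene probe sets. Of those genes 26 had only 1, and among the 24 with more, 17 had all probe sets on the same side of 0. Of the 106 probe sets 0 passed over 45037 probe sets (0.0111% of all passed, limma), 8 had an unadjusted p under 0.05 (7.55%, beside 15.4% of all probe sets), and 20 had no overlap (18.9%, beside 18.6%).

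Bright and dim probe sets of a gene differed for several members. The 67 single-gene probe sets with a mean of at least 12 had a median difference of 0.035, with 5 higher and 0 lower without overlap. Over all 715 probe sets that bright the median was 0.010, with 39 higher and 55 lower without overlap. Over the 39 dimmer probe sets of the members it was -0.19, with 4 higher and 11 lower without overlap, and over all 44322 dimmer probe sets it was -0.046, with 3269 higher and 5013 lower. In the 16 genes with probe sets of both kinds, the dim ones lay below the bright ones in 8 and above in 8. The 3 widest ranges were those of Rps10 (from -0.68 to 0.13), Rpl35 (from -0.75 to 0.039) and Rps18 (from -0.64 to 0.096), each with 6 probe sets. In Rps10 the 5 bright probe sets stood between -0.051 and 0.13 and the dim one at -0.68. In Rps18 the 3 bright ones stood between 0.025 and 0.096 and the 3 dim ones between -0.64 and -0.47. Rps3, which is also a DNA repair endonuclease, stood at -0.11 on its brightest probe set and at -0.65 and -0.54 on the others, both without overlap and the latter with a mean of 2.74. With the mean of all probe sets in place of the brightest, 9 members had no overlap and the median was -0.048. The share of all genes without overlap is not given for that setting, and was 18.9% with the brightest.

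**Figure D4:**
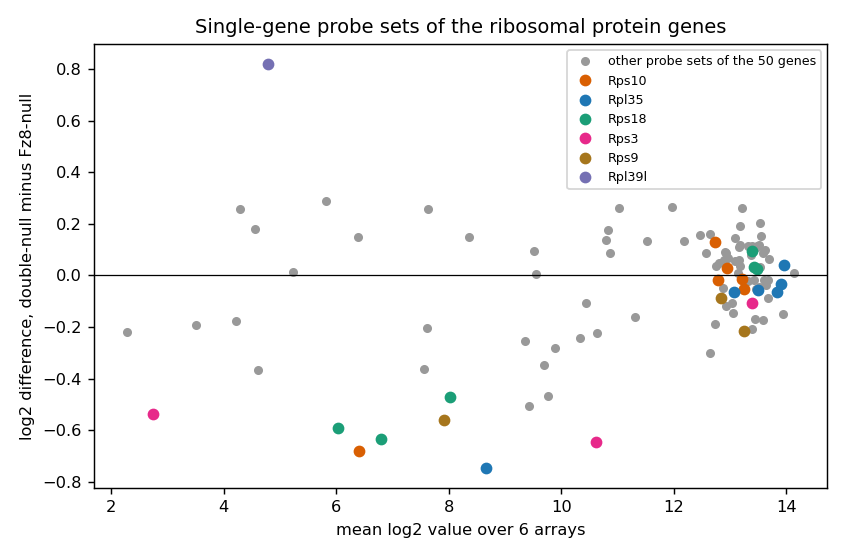
Log2 difference (y axis) against mean log2 value over 6 arrays (x axis) for the 106 single-gene probe sets of the 50 genes, with 6 genes in colour. The bright probe sets of Rps10, Rpl35 and Rps18 lie near 0 and their dim ones between -0.75 and -0.47.

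Genes known only from shared probe sets were likewise close to 0 on the brightest of these. Of the 31 symbols, 25 could be read from a probe set that holds no other ribosomal protein gene, though it may also read pseudogenes. Their differences ran from -0.073 (Rpl3) to 0.22 (Rpl34), with a median of 0.039, and 24 of the 25 intervals lay within 0.5 of 0. None passed the threshold (limma, 0 of 25), and 0 had an unadjusted p under 0.05, beside 15.3% of all genes. The groups did not overlap for 4 of the 25 (16%), beside 18.9% of all genes. Rplp1, the other acidic stalk protein, read 13.08, 13.05 and 13.02 against 13.13, 13.26 and 13.11, a difference of 0.12 without overlap. Rps15a, at 0.19, and Rpl21, at 0.11, were higher without overlap too, and Rpl23a was lower at -0.040. Rpl5 stood at -0.0034, Rpl10 at 0.059, Rpl24 at -0.053 and Rpl35a at -0.0073, all with overlapping groups. Dimmer shared probe sets spread more widely. Of all 110 shared probe sets, those of members included, 31 had a mean under 12 and ran from -0.79 to 1.64. Among these 16 lay above 0 and 15 below, with 2 higher and 3 lower without overlap. Rpl9 stood there at -0.77 and Rps13 at -0.64, both lower without overlap. Rpl17 at -0.79 and Rpl21 at 1.64 overlapped. Fau, which is made as a fusion of a ubiquitin-like protein to a small-subunit protein, stood at -0.14 (95% interval -0.44 to 0.16).

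Genes that build and use the ribosome were read from lists. Of the 34 measured translation factors, 13 lay above 0 and 21 below, with a median of -0.030, and 1 had no overlap (2.94%, beside 18.9% of all genes). Eif3h stood at -0.21 and Eif3d at -0.42, both subunits of the factor that binds the small subunit, and Eif5 at 0.28 and Eif4g2 at 0.18. The 82 measured ribosome assembly genes had a median of -0.19, with 13 above 0 and 69 below, and 15 were lower without overlap (18.3%) and 0 higher. Over all genes 12.2% were lower and 6.68% higher without overlap, the median was -0.061, and 10576 of 18193 lay below 0. Nolc1, a nucleolar phosphoprotein, read 10.96, 11.31 and 11.46 against 10.50, 10.44 and 10.77, a difference of -0.67 (SE 0.18, limma adjusted p = 0.314). Polr1b, a core subunit of RNA polymerase I, read 7.42, 7.88 and 7.73 against 6.67, 6.61 and 7.32, a difference of -0.81 (SE 0.23, limma adjusted p = 0.314). On the other side Rpf2 stood at 0.28 and Nmd3, an export adaptor of the large subunit, at 0.26. In each of those, M1 and M2 lay farther from the Fz8-null mean than M3. Measured from the Fz8-null mean, the assembly genes had a median of -0.26 (M1), -0.25 (M2) and -0.052 (M3). The difference from the ribosomal protein genes was not tested.

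Of 21 measured genes of TOR signalling and TOP control, 3 lay above 0 and 18 below, with a median of -0.24, and 4 were lower without overlap (19%), where 18.9% of all genes had no overlap and 12.2% were lower. Larp1, which binds the TOP tract and represses it, stood at -0.46 (10.77, 11.22 and 11.24 against 10.53, 10.54 and 10.77, where M3 and C1 nearly met). Mycn, a Myc factor of nephron progenitors, read 11.38, 11.42 and 11.43 against 11.06, 11.03 and 11.07, a difference of -0.36 (SE 0.11, limma adjusted p = 0.314). Its arrays lay close together within each genotype. Eif4ebp1 stood at 0.30 and Rheb, the activator of TOR, at 0.17. The 76 mitochondrial ribosomal protein genes had a median of -0.066, with 29 above 0 and 47 below, and 3 had no overlap (3.95%, beside 18.9% of all genes). Their interval lay within 0.5 of 0 for 35.5%. Mrps24 stood at 0.70 and Mrps18c at 0.40 on the higher side, and Mrps5 at -0.45 and Mrps23 at -0.46 on the lower. No gene of these 4 lists passed over all genes (limma, 0 in each). At an unadjusted p under 0.05 there were 0 of 34 translation factors, 16 of 82 assembly genes (19.5%) and 4 of 21 TOR and TOP genes (19%). It was 3 of 76 mitochondrial genes (3.95%), beside 15.3% of all genes in either direction. Those 16 assembly genes and 4 TOR and TOP genes were all lower, and the 3 mitochondrial genes all higher. Over all 18193 genes 1679 were lower and 1101 higher at that p.

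**Figure D5:**
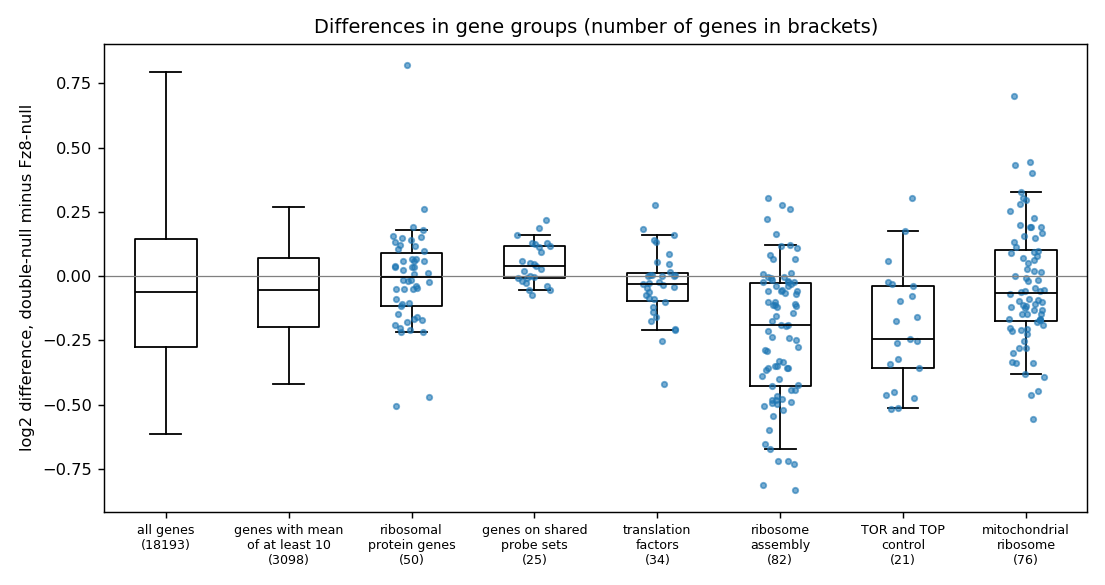
Log2 difference between double-null and Fz8-null kidneys (y axis) for 8 gene groups (x axis), with the quartiles as a box, the 5th to 95th percentile as whiskers and single genes as points for groups under 100 genes. The ribosomal protein genes are centred at -0.0050, the translation factors at -0.030 and the assembly genes at -0.19.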

How the data were processed

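Whole kidneys of 2 genotypes, 3 arrays each, were labelled from 100 ng of total RNA. The deposited table holds 1 log2 intensity per probe set and array, which the authors normalized with RMA, per the submitters' processing notes (version not given in the sources used here). Those log2 values were used as deposited by the authors. Of 45101 probe sets, 64 controls were set aside, and 45037 were tested. The annotation gave 1 gene for 34945 of them, several for 932 and none for 9160. The symbols of all 50 members are listed in RefSeq (GRCm38.p6). Double-null was compared with Fz8-null by limma 3.58.1 (R 4.3.3, lmFit and eBayes without trend, two-sided) over all 18193 genes, with Benjamini-Hochberg adjustment and a threshold of 0.05. The fit was also run on simulated data in which 200 genes were moved by 1 or 2 log2 units. It found 48 of those moved by 1 and 84 of those moved by 2, with 6 false calls. The simulated noise was independent between genes, without displacements of an array shared by many genes, so it does not show how the fit performs on these arrays. No test was made over the members as a set. Arrays give no read depth, so their number limits the precision. The members, lists and tests were chosen with earlier results of these data known.

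Named were the 5 members of smallest p in each direction, the 3 brightest and 3 dimmest, those with the 3 widest ranges of probe sets, paralogs with their partners, a set of members with known roles, and the 2 genes of smallest p in each direction of every pathway list. Others were named after their values were seen. Alternatives were 2 normalizations, minimum means of 6 and 10, trended and robust eBayes, weights for arrays, a block for replicate number, each array left out, an average over a gene's probe sets, an adjusted p of 0.1, and other sets of members.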

Additional observations from a re-analysis of the deposited data

Results flagged for a closer look

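Control probe sets of 18S ribosomal RNA, the RNA of the small subunit, lie outside the comparison of genes and read higher in all 3 double-null arrays. The 3′ set read 8.14, 7.32 and 7.40 in C1, C2 and C3 and 9.16, 9.64 and 9.25 in M1, M2 and M3, a difference of 1.73 (exact two-sided permutation p = 0.1, the smallest possible). The 5′ set read 8.53, 7.59 and 7.84 against 9.88, 10.56 and 9.86, a difference of 2.11 (exact permutation p = 0.1). The middle set read 11.23, 11.43 and 11.38 against 10.79, 11.12 and 11.87, a difference of -0.091 with overlapping groups (exact permutation p = 0.8). The 3 sets of the same RNA thus differed, and C1 was the highest Fz8-null array in the first 2. The cause was not tested.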

How the results depend on the processing

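The alternatives of normalization, filter, model, arrays and probe sets were run on the 50 members and on all genes, and the other sets of members on the members alone. The pathway and mitochondrial lists and the single probe sets were read in the reported setting alone. The number of genes that passed went from 5 to 2 with a minimum mean of 10, 7576 with array weights, 3 with the replicate block, 1 with the mean of all probe sets and 11 at an adjusted p of 0.1, and from 2 to 3292 on leaving out each array (3292 without M3). Members past the threshold went from 0 to 13 with array weights (3 higher, 10 lower; 41.6% of all genes passed there) and from 0 to 2 on leaving out each array, and were 0 in the other settings, the replicate block included. Array weights gave M1 a weight of 3.93 and M3 one of 0.21. The called members were Rpl39l (0.78), Rps26 (0.39) and Rps7 (0.30) on the higher side and Rps4l, Rps19bp1, Rps27, Rps9, Rpl27, Rpl19, Rps16, Rpl37, Rpl3l and Rplp0 on the lower, from -1.05 to -0.28. Members without overlap went from 5 to 2 with a minimum mean of 6 or 10 and to 9 with the mean of all probe sets. They were 3 without paralogs and Rps19bp1, 9 with genes on shared probe sets, and from 5 to 34 on leaving out each array. Over all genes the share was 18.9% in the reported setting, 19.6% at a mean of at least 10, 53.4% without M3 and 39.4% without C1. It is not given for the mean of all probe sets, a minimum mean of 6, the set with genes on shared probe sets or the other arrays left out. Those counts cannot be read against a background.

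The median of the members was -0.033 with quantile normalization, 0.050 with equal array medians, 0.025 with a minimum mean of 10, -0.048 with the mean of all probe sets, 0.022 with genes on shared probe sets, and from -0.025 to 0.010 on leaving out each array. The small-subunit median was 0.032 with quantile normalization, 0.12 with equal array medians, and from 0.030 to 0.060 on leaving out each array. The large-subunit median was 0.036 with equal array medians, -0.069 with the mean of all probe sets, and from -0.039 to -0.0069 on leaving out each array. Fzd4 ranged from -6.42 to -5.71 on leaving out each array and was not called without C1 or C3. Fzd8 passed with array weights (-0.58, limma adjusted p = 0.0332), and ranged from -0.48 to -0.065 on leaving out each array.

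Of the 31 named members 22 kept their sign in every setting. With equal array medians the sign turned for Rpl11 (0.0039), Rpl22 (0.034), Rpl38 (0.019), Rps10 (0.0046) and Rps19 (0.0064). With the mean of all probe sets it turned for Rpl35 (-0.15), Rpl41 (-0.096), Rps18 (-0.26) and Rps6 (-0.11), and with quantile normalization for Rpl41 (-0.037). On leaving out each array, Rpl22 ranged from -0.082 to 0.022 and Rpl41 from -0.021 to 0.053. Residuals of arrays with the same replicate number correlated at 0.17, -0.14 and 0.090, and not every array correlated best with its own number. The highest value was 0.25, between C2 and M3. Residuals centred within 3 arrays depend on each other, so these values cannot decide whether the numbers mark pairs. The sources used here do not say. With the replicate block Rpl39l had a limma adjusted p of 0.289. The causes were not tested. The intervals, which rest on 3 arrays per genotype and on the variance model, limit what size of change can be told from 0. Compression near the top of the scale was not tested.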
